A study of Chrysemys picta and Apalone spinifera with 20 samples.

Results

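The gonads of stage 22 embryos of the painted turtle Chrysemys picta were compared between eggs held at 26 °C, a male-producing temperature (MPT), and at 31 °C, a female-producing temperature (FPT). Chrysemys has temperature-dependent sex determination, and stage 22 lies late in the thermosensitive period. The members are 2 of the 20 RNA-seq libraries of the series, the labelled 26 °C and 31 °C stage 22 gonads, described across the 13640 of 13940 gene entries with a count in either library. The other Chrysemys libraries, also from 26 °C and 31 °C, are gonads of stage 19, whole trunks of stage 9 and, for stages 12 and 15, the undivided adrenal, kidney and gonad. The same 5 stages were sampled at 26 °C and 31 °C in the softshell turtle Apalone spinifera, whose sex is set by its genotype at either temperature. Each Chrysemys library is 1 pool of 10 embryos. Stage 22 was reached after about 26 days at 26 °C and about 23 days at 31 °C, so that temperature and days of incubation cannot be told apart. An Apalone pool held 5 unsexed embryos, and its reads were counted on the genes of Chrysemys. No stage 22 group had a replicate, so the spread between pools at stage 22 was not measured.

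The early vertebrate gonad is bipotential. Its supporting cells become Sertoli cells in a testis, which secrete anti-Müllerian hormone, or granulosa cells in an ovary, which depend on the forkhead factor FOXL2 and make estrogen with aromatase. In turtles with temperature-dependent sex determination, incubation temperature during the thermosensitive period sets which of these programs is followed, and aromatase and estrogen are tied to the ovarian one.

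The 26 °C library held 11610098 counts, the fewest of the 10 Chrysemys libraries, and the 31 °C library 17869910. The largest of the 10 held 24606646. Each value below is a scaled count, that is, the deposited read count divided by the 75th percentile of its library and set to a common level over the 10 libraries. Ratios are 31 °C over 26 °C, and log2 ratios are of scaled counts plus 1. Intervals of folds are exact 95% intervals on read pairs, which cover counting error only. A gene was called where the adjusted p of Fisher's exact test (two-sided, on read pairs) was under 1e-10 and the scaled counts plus 1 differed at least 2-fold. That test compares 2 libraries, not 2 temperatures, so no p of it is given. In bulk tissue, fewer cells of a type and less RNA per cell cannot be told apart.

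By this rule 509 genes (3.73% of those tested) were called higher in the 31 °C library and 349 (2.56%) higher in the 26 °C library. Most genes stood near equality. The median log2 ratio over all genes was 0.05, and of 10334 genes with at least 100 counts over both libraries 68.1% differed by less than 1.5-fold. When scaled by total counts instead, the median moved by -0.36 on the log2 scale and the calls became 263 higher at 31 °C and 856 higher at 26 °C. The share of calls that were higher at 31 °C was then 23.5%, against 59.3% with the 75th percentile. All 349 calls higher at 26 °C were also made with total counts, and 263 of the 509 higher at 31 °C. This overlap follows from a shift of all genes toward 26 °C and is no separate support for the calls.

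**Figure D1:**
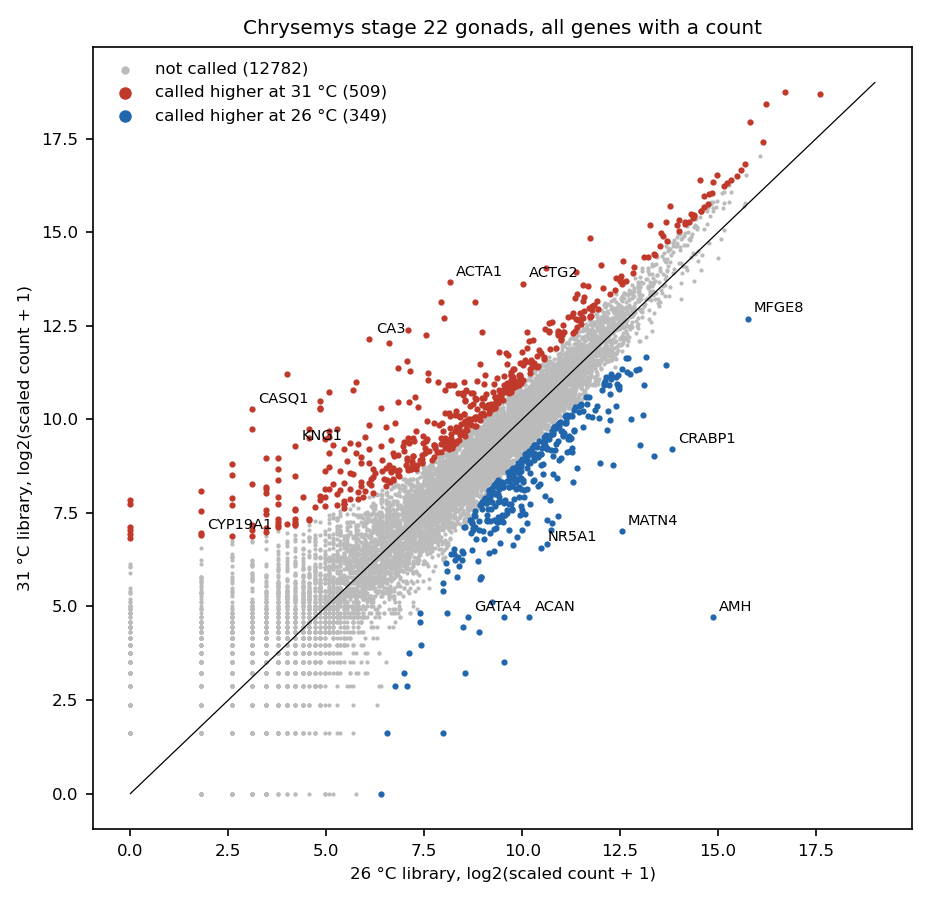
Scaled counts of every gene with a count in the 26 °C (horizontal) and the 31 °C (vertical) stage 22 library, as log2(scaled count + 1), each point 1 gene and the line marking equality. The 509 genes called higher at 31 °C are red and the 349 called higher at 26 °C are blue, with AMH farthest below the line.

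The 10 most counted genes took 5.48% of all counts at 26 °C and 11.7% at 31 °C. Hemoglobin was a part of this. The 4 entries described as hemoglobin subunits together took 1.66% (95% Wilson interval 1.65 to 1.67%) of the 26 °C counts and 5.68% (5.67 to 5.70%) of the 31 °C counts. Each of the 4 was called higher at 31 °C, with log2 ratios from 2.05 to 3.42. The stage 19 gonads showed a like gap, 2.16% at 26 °C and 5.78% at 31 °C. The part of blood in the results below was not tested.

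Genes of the testis and Sertoli program were split. Of 13 measured members of a list of 26, 4 were called higher at 26 °C and 2 higher at 31 °C. Over all genes tested, 2.56% were called higher at 26 °C and 3.73% higher at 31 °C, the shares to set beside each list count below. The list median was 0.25, and -0.11 with total counts. The 4 were AMH, CLDN11, DMRT1 and SOX9, among the defining genes of Sertoli cells. AMH, the Sertoli hormone that regresses the Müllerian ducts, stood at 29836 at 26 °C (23812 counts) and at 25.1 at 31 °C (24 counts). The 26 °C library was 1189-fold higher (680 to 2301-fold), and its log2 ratio of -10.16 was the lowest of all 13640 genes. CLDN11, a claudin of Sertoli cell junctions, stood at 10472 at 26 °C and 518.8 at 31 °C, 20.2-fold higher at 26 °C (17.8 to 23.04-fold). DMRT1, a transcription factor needed to keep the testis fate, stood at 358.4 and 20.9, 17.1-fold higher at 26 °C (9.05 to 36.5-fold). SOX9, a transcription factor of Sertoli cells and of cartilage, stood at 2388 and 566.9, 4.21-fold higher at 26 °C (3.68 to 4.84-fold). HPGDS, a prostaglandin D synthase, stood higher at 31 °C, with 115.3 at 26 °C and 355.6 at 31 °C. FHL2, a cofactor of several nuclear receptors, stood at 486.2 and 1008 and was the other member called higher at 31 °C. With total counts neither HPGDS nor FHL2 was called. The remaining 7 members were not called, DHH and FGF9 among them, with log2 ratios of 0.49 and 0.42.

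The factors that build the gonad before it has a sex were lower in the 31 °C library. Of 17 measured members of the gonadal ridge list (20 genes), 5 were called higher at 26 °C and 0 at 31 °C, with a list median of -0.49. NR5A1, the nuclear receptor (SF1) that switches on steroidogenic genes, stood at 1433 at 26 °C and 94.1 at 31 °C, 15.2-fold higher at 26 °C (11.2 to 21.1-fold). GATA4, a zinc finger factor that acts on AMH together with NR5A1 in mammals, stood at 393.4 and 25.1, 15.7-fold higher at 26 °C (8.72 to 30.98-fold). ZFPM2, its cofactor (FOG2), stood at 431.0 and 136.0. LHX9, a LIM homeobox factor of the gonadal ridge, stood at 511.2 and 127.6, 4.01-fold higher at 26 °C (2.996 to 5.42-fold). LHX2, its close relative, stood at 137.8 and 12.6. GATA6 (log2 ratio -0.85), TCF21 (0.87) and OSR1 (0.69) were not called. With total counts GATA6 was called higher at 26 °C, at -1.21.

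Of 10 measured entries of the steroidogenic and hormone receptor list (24 genes), 4 were called higher at 26 °C and 0 at 31 °C, with a median of -0.74. NR5A1 belongs to this list as well. AMHR2, the receptor of AMH, stood at 1351 at 26 °C and 297.0 at 31 °C, 4.55-fold higher at 26 °C (3.77 to 5.51-fold). NR0B1, the NR5A1 antagonist DAX1, stood at 503.7 and 194.5. The electron carriers of steroid synthesis FDX1 and FDXR were not called, at -0.62 and -0.76. With total counts FDXR was called higher at 26 °C, at -1.12.

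Of 18 measured members of the ovary and granulosa list (25 genes), 3 were called higher at 31 °C and 1 higher at 26 °C, with a median of -0.26. The shares over all genes were 3.73% and 2.56%. Log2 ratios of 7 members lay above 0 and of 11 below 0. CYP19A1, the aromatase that turns androgens into estrogens, was counted 2 times at 26 °C (1 read pair) and 114 times at 31 °C (57 pairs), a ratio of 47.6 with a counting interval of 8.20 to 1912. FST, the activin antagonist follistatin, stood at 172.9 at 26 °C and 525.1 at 31 °C, 3.04-fold higher at 31 °C (2.32 to 4.02-fold). GATA2 stood at 115.3 and 401.6, and with total counts it was not called. FOXL2 was counted 6 times at 26 °C and 100 times at 31 °C (ratio 13.9, 4.49 to 69.7), and missed the threshold of the test between the libraries, so it was not called. ESR1, the estrogen receptor alpha, was the member called higher at 26 °C, at 1674 against 230.1 at 31 °C, 7.27-fold (5.94 to 8.98-fold). The Wnt agonist RSPO1 and the Wnt effector CTNNB1 were not called, at 0.40 and 0.10. ESR2 and BMP2, among the uncalled members below 0, stood at -1.38 and -1.01.

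**Figure D2:**
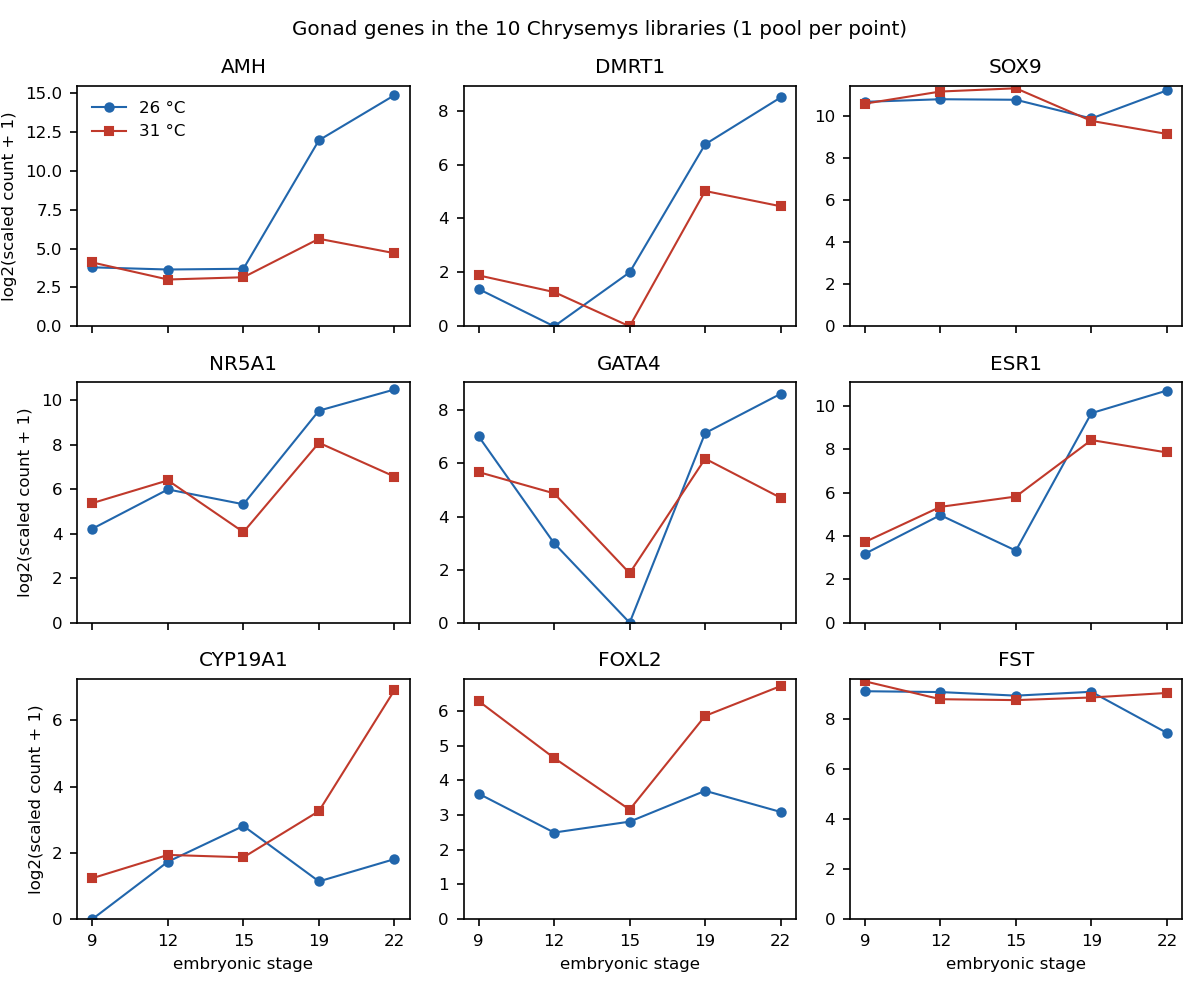
Scaled counts of 9 gonad genes, as log2(scaled count + 1), in the 26 °C (blue circles) and 31 °C (red squares) Chrysemys libraries of each stage, each point 1 pool and lines joining pools of 1 temperature. At stage 22 AMH, DMRT1, SOX9, NR5A1, GATA4 and ESR1 lie higher at 26 °C and CYP19A1, FOXL2 and FST higher at 31 °C.

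Of the 13 measured members of the germ cell and meiosis list (48 genes), 0 were called in either direction, 10 had a log2 ratio below 0 and the median was -0.48. Over all genes 3.73% were called higher at 31 °C and 2.56% higher at 26 °C. DDX4, the germ cell helicase VASA, stood at 644.0 at 26 °C and 462.3 at 31 °C, and PIWIL1 at 488.7 and 435.1. PIWIL2 stood at 210.5 and 60.7 and CPEB1, a regulator of polyadenylation, at 726.7 and 426.7. With total counts these 2 were called higher at 26 °C and the median was -0.84.

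Outside these lists, the leading genes higher at 26 °C had varied roles. LPAR3, a receptor for lysophosphatidic acid, stood at 736.7 at 26 °C and 10.5 at 31 °C. CRABP1, a cytoplasmic carrier of retinoic acid, stood at 14439 and 585.7, 24.7-fold higher at 26 °C (21.9 to 27.9-fold). CRABP2, its paralog, lay the other way, at 3042 and 7679, and was not called with total counts. MFGE8, a secreted protein that bridges dying cells to phagocytes, was the most counted gene among the leading ones at 26 °C, at 55472 against 6627. The cartilage list gave 4 of 8 measured members higher at 26 °C and 0 at 31 °C, with a median of -1.92. Its matrix genes MATN4 (5972 and 128), ACAN (1153 and 25.1), COL11A1 (8184 and 635.9) and COL2A1 (3245 and 1351) were those called. COL9A1 and COL9A2, also cartilage collagens, were not called, at -0.55 and -0.17.

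Contractile genes were higher in the 31 °C library. Of 21 measured skeletal muscle genes (44 listed), 15 were called higher at 31 °C and 0 at 26 °C, with a median of 2.68, and the list took 0.0183% of counts at 26 °C (0.0173 to 0.0195%) and 0.185% at 31 °C (0.182 to 0.188%). ACTA1, skeletal actin, stood at 283.2 at 26 °C and 13024 at 31 °C, 46.0-fold higher (38.2 to 55.9-fold). CASQ1, the calcium store protein of fast fibres, was counted 6 times at 26 °C and 1192 times at 31 °C (ratio 165.8, 56.5 to 806). TNNC2, fast troponin C, stood at 95.2 and 4177. The differentiation factors MYOG and MYF6 had 6 and 4 counts at 26 °C and 50 and 36 at 31 °C, and were not called. Actin genes are close copies of each other, so reads may be shared among ACTA1, ACTC1, ACTA2 and ACTG2. Smooth muscle followed, with 7 of 11 members called higher at 31 °C and 0 at 26 °C and a median of 1.68. ACTG2, an actin of visceral muscle, stood at 1032 and 12664, and CNN1, calponin, at 82.7 and 1263. MYH11, SYNPO2 and LMOD1 were not called with total counts.

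Of 24 measured stromal and matrix genes (32 listed), 13 were called higher at 31 °C and 1 higher at 26 °C, with a median of 1.35. The fibrillar collagens COL1A1 (14058 and 53339) and COL3A1 (9838 and 37637) were higher at 31 °C. So were the matrix proteins DPT (37.6 and 847.2), POSTN (3290 and 12091) and THBS2 (481.1 and 2858). VCAN, a large proteoglycan, was the member higher at 26 °C, at 5661 and 1797. FOXF2, a forkhead factor of mesenchyme, was counted 2 times at 26 °C and 258 times at 31 °C (ratio 107.7, 19.0 to 4286).

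**Figure D3:**
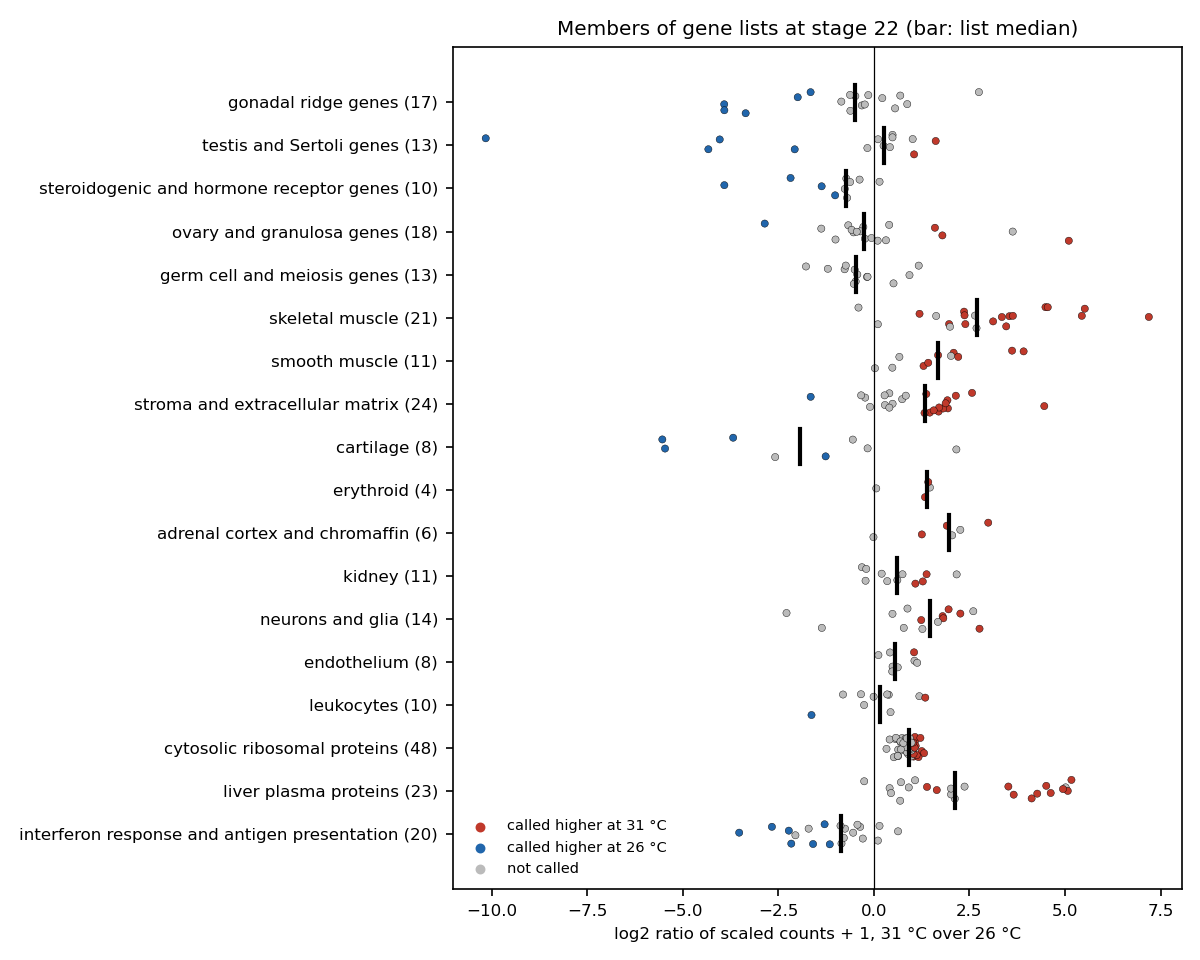
Log2 ratio (31 °C over 26 °C) of each measured member of 18 gene lists at stage 22, with the number measured in parentheses, red and blue points called higher at 31 °C and at 26 °C, grey points not called and black bars the list median. Medians run from -1.92 for cartilage to 2.68 for skeletal muscle, against 0.05 over all genes.

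Genes of liver plasma proteins formed a group of their own. These and the interferon genes that follow were listed after their values were seen, so the counts describe and do not test them. Of 23 measured genes of the plasma protein list, 11 were called higher at 31 °C and 0 at 26 °C, with a median of 2.12. The fibrinogen chains FGA (32.6 and 828.4), FGB (35.1 and 629.7) and FGG (30.1 and 707.1), the kininogen KNG1 (17.5 and 623.4) and the antiplasmin SERPINF2 (22.6 and 725.9) were among them. ARG1, the urea cycle arginase, is in the same list but is a liver enzyme and not a plasma protein. It was counted 6 times at 26 °C and 292 times at 31 °C (ratio 40.6, 13.6 to 199). SERPINC1, the antithrombin, was not called, at -0.25. CA3, a carbonic anhydrase outside the list, stood at 67.7 and 4537, 67.1-fold higher at 31 °C (46.0 to 102-fold).

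Of 20 measured genes of interferon response and antigen presentation, 7 were called higher at 26 °C and 0 at 31 °C, with a median of -0.86. IRF7, a transcription factor of the interferon response, stood at 1722 at 26 °C and 148.5 at 31 °C, 11.6-fold higher at 26 °C (9.07 to 15.0-fold). B2M, the light chain of class I histocompatibility molecules, stood at 13119 and 2801, and RNF213 at 2486 and 554.3. The sensor RIGI (-0.85) and the transactivator CIITA (-0.29) were not called.

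Markers of other tissues that a dissected gonad could carry were also read. The kidney markers LRP2 (7906 and 9102) and SLC12A1 (8583 and 7464) were high in both libraries and not called, while CUBN (2138 and 5190) was called higher at 31 °C. Of 11 measured kidney genes 3 were called higher at 31 °C, with a median of 0.61, and 1 with total counts. The kidney list took 0.233% of all counts at 26 °C and 0.231% at 31 °C, and its summed scaled count was 33958 and 43262. Of 6 measured genes of adrenal cortex and chromaffin cells, 3 were called higher at 31 °C. These were SCG2, CHGA and DBH, the enzyme that makes noradrenaline (315.7 and 1188). With total counts 1 of the list was called, and SCG2 and CHGA were not. The cortex markers CYP11B1, CYP21A2 and MC2R had no matched entry, so adrenal cortex was not assessed with them. Of 14 measured genes of neurons and glia, 6 were called higher at 31 °C, with GAP43, a protein of growing axons, at 285.7 and 1945. With total counts 4 of the list were called higher at 31 °C and 1 higher at 26 °C. The endothelial list had 1 of 8 members called, higher at 31 °C, and the leukocyte list 1 in each direction of 10. The shares over all genes were 3.73% higher at 31 °C and 2.56% higher at 26 °C. Of the 32 defining markers of these tissues and of the gonad that were matched, 0 were at 0 counts in either library. The part of other tissues in the gonad, muscle, stromal and plasma protein results was not tested.

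Cytosolic ribosomal protein genes took 7.44% of counts at 26 °C and 11.1% at 31 °C, and 14 of 48 were called higher at 31 °C, with a median of 0.93. With total counts the median was 0.57 and 0 were called. EEF1A1, the elongation factor with the most counts in both libraries among genes with a symbol, stood at 200513 and 425108. Near-identical copies and pseudogenes can share reads in these families. Heat and cold response genes gave 3 calls of 34, all higher at 31 °C. These were the collagen chaperone SERPINH1 (4250 and 11677), the small heat shock protein HSPB1 (147.9 and 719.6) and the cochaperone BAG3 (225.5 and 556.4), of which BAG3 was not called with total counts. CIRBP, a cold-inducible RNA-binding protein, was not called, at 0.77. Of the 31 cell cycle genes measured, 0 were called, with a median of 0.29. The Wnt list had 2 of 32 called in each direction, WNT5A (1967 and 903.7) and DVL1 (874.6 and 372.4) higher at 26 °C and SFRP2 (431.0 and 1676) and WNT11 (263.1 and 711.2) higher at 31 °C. Beside these list counts, 3.73% of all genes tested were called higher at 31 °C and 2.56% higher at 26 °C.

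Genes with a symbol that had 0 counts in a library and at least 40 in the other were all at 0 at 26 °C. Against a floor of 3 read pairs per library, GPR20 (132 counts at 31 °C) was at least 18.4-fold higher at 31 °C, NRIP3 (64 counts) at least 8.90-fold, ANKRD22 (42 counts) at least 5.84-fold and SCTR, the secretin receptor (40 counts), at least 5.57-fold. These folds leave out the counting error of the 31 °C counts. NRIP3, ANKRD22 and SCTR missed the threshold of the test between the libraries, so they were not called.

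The stage 22 difference was then set against the spread of temperature differences at the other Chrysemys stages. An edgeR quasi-likelihood fit over the 10 Chrysemys libraries took stage as a block, gave stages 9 to 19 a shared temperature effect and stage 22 its own, and left 3 residual degrees of freedom. It assumes that the lone stage 22 pair varied like the others. At an adjusted p under 0.05, 88 genes of 13152 (0.669%) were higher at 31 °C and 36 (0.274%) higher at 26 °C. Higher at 26 °C were AMH (log2 effect -10.19, adjusted p = 0.0047), LPAR3 (-6.11, 0.0079), MATN4 (-5.53, 0.0090), CLDN11 (-4.32, 0.0098), CRABP1 (-4.61, 0.013), NR5A1 (-3.91, 0.019) and SOX9 (-2.06, 0.048). DMRT1 (adjusted p = 0.055), GATA4 (0.068) and ESR1 (0.094) missed the threshold in the same edgeR fit, as did CYP19A1 and FOXL2 (both 0.10). CA3 (6.08, 0.00088), outside the plasma protein list, was higher at 31 °C. So were 10 of 23 genes of that list, among them KNG1 (5.16, 0.0033) and FGA (4.68, 0.0047). That list was made after its stage 22 values were seen, so this count describes and does not test it. Of 21 skeletal muscle genes 0 passed (ACTA1 5.54, 0.078). The edgeR calls rested on the stage 9 pair. Without it 1 gene passed higher at 31 °C and 0 higher at 26 °C, and the adjusted p of AMH was 0.074 by edgeR.

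Whether the stage 22 effect differed from the shared effect of stages 9 to 19 was tested in the same fit. The difference passed toward 31 °C for 39 genes (0.297%) and toward 26 °C for 16 (0.122%). Toward 31 °C it was led by CA3, with a difference of 5.93 (adjusted p = 0.0019 by edgeR), FGG, FGA, KNG1 and FGB. Toward 26 °C it took in AMH, CLDN11, MATN4, ACAN, COL11A1 and IRF7. Without the stage 9 pair 1 gene passed toward 31 °C and 0 toward 26 °C.

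At stage 19, the other gonad pair of Chrysemys, 563 genes (4.09%) were called higher at 31 °C and 273 (1.99%) higher at 26 °C. Of the 509 stage 22 calls higher at 31 °C, 164 were called the same way at stage 19, 32.2% of the stage 22 calls and 29.1% of the stage 19 calls. Of the 349 higher at 26 °C, 60 were called the same way, 17.2% and 22.0%. Opposite calls numbered 14 and 5. AMH had 6680 counts at 26 °C and 34 at 31 °C at stage 19, a log2 ratio of -6.34, and CLDN11, CRABP1, NR5A1 and ESR1 were called higher at 26 °C at stage 19 as well. SOX9 was not, at -0.12 at stage 19 against -2.07 at stage 22, nor were GATA4 (-0.96) and DMRT1 (-1.73). The skeletal muscle median was 4.19 at stage 19 and 2.68 at stage 22. The plasma protein median was -0.49 at stage 19 and 2.12 at stage 22.

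**Figure D4:**
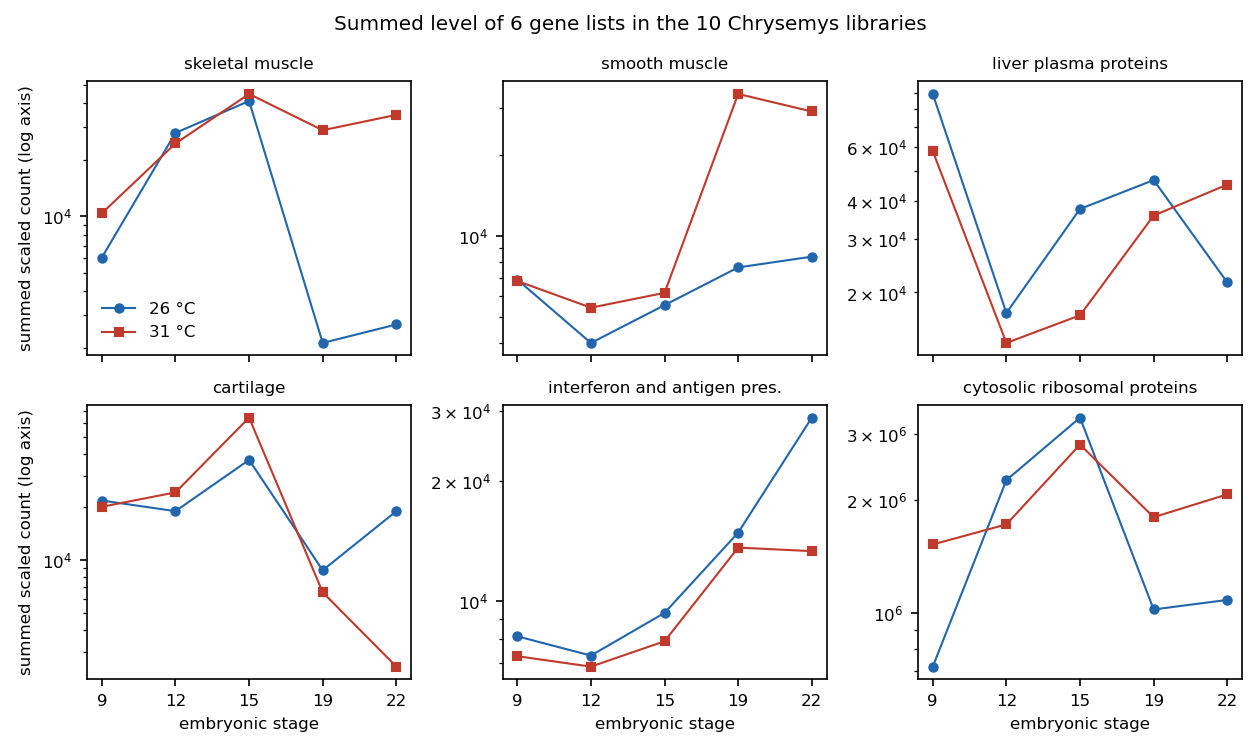
Summed scaled counts of 6 gene lists, on a log axis, in the 26 °C (blue circles) and 31 °C (red squares) Chrysemys libraries of each stage, each point 1 pool. Both muscle lists lie higher at 31 °C at stages 19 and 22, while plasma protein genes lie higher at 31 °C only at stage 22 among the 5 stages.

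In Apalone at stage 22, 166 genes (1.38%) were called higher at 31 °C and 76 (0.633%) higher at 26 °C. Of the 509 Chrysemys calls higher at 31 °C, 464 had a count in the Apalone pair and 57 were called the same way there. These 57 are 11.2% of the 509, uncounted genes included, and 34.3% of the calls of Apalone. Of the 349 higher at 26 °C, 328 had a count in the Apalone pair, 1 was called the same way and 7 the opposite way. AMH was among the opposite ones, with 0 counts at 26 °C and 230 at 31 °C in Apalone, at least 30.5-fold higher at 31 °C. DMRT1 (10 and 230 counts) and CLDN11 (122 and 988 counts) were also called higher at 31 °C in Apalone. With 5 unsexed embryos in each Apalone pool, sex and temperature cannot be told apart there. NR5A1 had 40 counts in each Apalone library, and GATA4 had 16 and 26. Skeletal muscle genes were higher at 31 °C in Apalone as well, 17 called of 20 measured members, with a median of 5.30. The stage 22 effects of the species were compared in a joint edgeR fit with 6 residual degrees of freedom. They differed in 0 of 12289 genes (0%) at an adjusted p under 0.05. An unadjusted p under 0.05 was found for 982, a count that includes genes passing by chance. DESeq2 called 26 toward 31 °C and 36 toward 26 °C. AMH had an adjusted p of 0.059 in that edgeR fit.

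**Figure D5:**
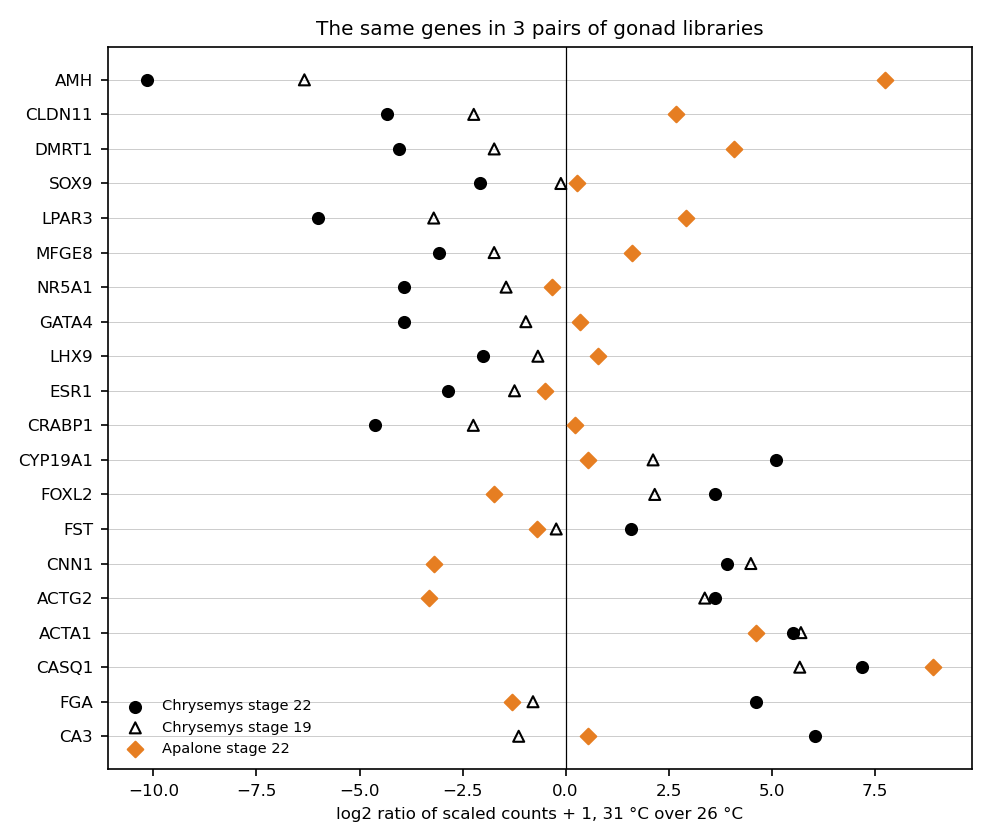
Log2 ratio (31 °C over 26 °C) of 20 genes in the stage 22 gonads of Chrysemys (filled circles), the stage 19 gonads of Chrysemys (open triangles) and the stage 22 gonads of Apalone (diamonds), each point 1 pair of pools. AMH, at -10.16, -6.34 and 7.74, and CNN1 and ACTG2 lie on opposite sides of 0 in the 2 species, while ACTA1 and CASQ1 lie above 0 in all 3 pairs.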

How the data were processed

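The deposited tables hold whole-number read counts per gene, with no normalisation by the authors, who mapped the reads of both species to the Chrysemys gene set with GSNAP and counted them with HTSeq without strand. Reads of overlapping or antisense genes therefore cannot be told apart. The submitters' processing notes also name Trimmomatic 0.27. Every count was even, so Fisher's exact tests used read pairs. Of 13940 entries 6875 had a symbol, 5602 from a RefSeq table used for names alone, 1262 from the study's tables and 11 from the authors' names.

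Counts were scaled by the 75th percentile and given a pseudocount of 1. Benjamini-Hochberg adjustment ran over all genes tested. Model fits used edgeR 4.0.16 (TMM, quasi-likelihood, threshold 0.05) under R 4.3.3, with DESeq2 1.42.0 as an alternative. Python 3.11.15 and scipy 1.17.1 did the rest. Named genes, all with a symbol, came from the 20 called genes of largest log2 ratio per direction with at least 200 counts over both libraries, called members of the lists (for lists outside the gonad, at most the 6 of largest change), the 10 most counted per library, those at 0 in a library with at least 40 counts in the other, the 10 of smallest p per direction in each edgeR test and the defining markers. Other list members were named after their values were seen. The scripts were tested on simulated data. The genes and lists were chosen with earlier results of these data known, and the plasma protein, interferon and hemoglobin groups after their values were seen. With 1 pool per temperature, p-values measure no spread between embryos. Members without a matched symbol were not analysed here, and some members of the gonad lists are counted but not reported here by name.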

Additional observations from a re-analysis of the deposited data

Results flagged for a closer look

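Several genes had a temperature difference at stage 22 that differed from the shared effect of stages 9 to 19 in the edgeR fit (adjusted p under 0.05), but without the stage 9 pair 1 gene passed toward 31 °C and 0 toward 26 °C. The values are stage 22 effect minus shared effect on the log2 scale. Toward 31 °C lay plasma protein and liver genes, with ARG1 at 6.14, KNG1 5.61, FGA 5.44, FGG 5.30, SERPIND1 5.09, SERPINF2 5.05, FGB 5.02, ITIH3 4.40 and FETUB 4.02. CA3 (5.93), TIMP4 (5.03), an inhibitor of matrix proteases, and CPE (3.24), a carboxypeptidase of prohormones, lay on the same side. Toward 26 °C lay AMH (-7.87) and CLDN11 (-4.00), the cartilage matrix genes ACAN (-6.09), MATN4 (-5.31) and COL11A1 (-3.80), IRF7 (-3.96), and LRRC55 (-4.42), SCN4B (-3.57), TBX1 (-3.29) and CERS1 (-2.96). CLDN18 (-9.38) and LAMP3 (-5.81) lay there too, beside high ratios at stage 19. CLDN18 had 0 counts at stages 9, 12 and 15, 2 counts at 26 °C and 152 at 31 °C at stage 19, and 38 and 8 at stage 22, where it was not called. LAMP3 had 24 and 302 counts at stage 19 and 376 and 70 at stage 22. A surfactant protein C-like entry, a lung marker, had a log2 ratio of 7.34 at stage 19 and -1.57 at stage 22, and its part in both was not tested.

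Some genes called in the stage 22 pair were called the opposite way at stage 19, a difference that was not tested pair against pair. Higher at 31 °C at stage 22 but lower there at stage 19 were CHRNA3 (stage 19 log2 ratio -1.42), ARG1 (-1.33), SERPIND1 (-1.29), CA3 (-1.14) and FGB (-1.07). LAMP3 was higher at 26 °C at stage 22 and stood at 4.81 at stage 19.

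In Apalone at stage 22 the opposite calls among genes with a symbol were AMH (log2 ratio 7.74, with 0 counts at 26 °C, so that this value depends on the pseudocount), DMRT1 (4.08), LPAR3 (2.93), CLDN11 (2.68), COL11A1 (1.80) and MFGE8 (1.60), all higher at 26 °C in Chrysemys. ACTG2 (-3.32), CNN1 (-3.20), TNC (-2.04), MYH11 (-1.60) and COL3A1 (-1.19) were higher at 31 °C in Chrysemys. The joint edgeR fit called 0 genes for the difference between species. Of 12289 tested, 982 had an unadjusted p under 0.05, genes passing by chance included.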

How the results depend on the processing

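Counts of calls are given as higher at 31 °C and higher at 26 °C. The pair comparison gave 263 and 856 with total counts, 182 and 101 at 4-fold, 939 and 646 at 1.5-fold, 1202 and 792 with no fold minimum, and 1118 and 689 at an adjusted p under 0.05 with 2-fold. The edgeR stage 22 effect gave 1 and 0 without the stage 9 pair, 188 and 67 without stage 12, 258 and 111 without stage 15, 157 and 63 without stage 19, 36 and 17 with upper quartile scaling, 158 and 63 with no filter, and 158 and 81 with DESeq2. Against the other stages the counts were 1 and 0, 77 and 32, 95 and 36, and 86 and 36 without those pairs, 22 and 1 with upper quartile scaling, 69 and 27 with no filter, and 66 and 29 with DESeq2. DESeq2 gave 26 and 36 between species. With each read pair counted once, an alternative chosen after seeing the data, edgeR gave 91 and 42, and 34 and 13 against the other stages. The cause of these changes was not tested.

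Total counts lowered every list median, as a shift common to all genes must. The median turned from positive to negative for testis (-0.11), Wnt (-0.14), TGF-beta (-0.16), leukocyte (-0.19), Notch (-0.15) and cholesterol genes (-0.32). It also turned negative for heat and cold response (-0.14), cell cycle (-0.072) and glycolysis genes (-0.13). Among the lists whose median kept its sign, it went to -0.62 for ovary, -0.84 for germ cells, -0.36 for chromatin, 0.57 for ribosomal and 0.18 for mitochondrial genes. Of 210 named genes 162 kept direction and call with total counts, 35 lost the call, 4 gained it and 9 uncalled ones moved. TMM and DESeq2 scaling each left 208 as they were and a pseudocount of 10 left 209. No called gene changed sign, which these settings could not have brought about. A call needed at least 2-fold, and the largest shift, with total counts, was -0.36 on the log2 scale. A larger pseudocount cannot turn a sign. No paired analysis was possible because each group is 1 library with no replicate number to pair, apart from the stage block in the edgeR fits, and neither stage 22 library could be left out. At the depth of these libraries, genes with a few read pairs, such as FOXL2 and CYP19A1 at 26 °C, have wide intervals.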

Other observations

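Entries without a symbol were read by their description in the study's tables where they had one, and were chosen after their values were seen. They made up 195 of the 509 calls higher at 31 °C and 130 of the 349 higher at 26 °C. Of all 13640 entries with a count in either library 6808 had a symbol, against 314 of the 509 and 219 of the 349 calls. The calls thus held a smaller share of entries without a symbol than all counted entries did. Elastin-like entries, for the protein of elastic fibres, stood at 108 counts at 26 °C and 5102 at 31 °C and at 148 and 4668. A parvalbumin beta-like entry, for a calcium buffer of fast muscle, had 26 and 1612 counts. Serum albumin-like (8 and 276 counts), AMBP-like (4 and 424 counts) and plasminogen-like (34 and 564 counts) entries were called higher at 31 °C. So were 11 of the 23 measured genes of the plasma protein list, which have symbols.

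Higher at 26 °C were 3 of the RNF213-like entries, with 378 and 18 counts, 74 and 2, and 66 and 0, and a class II histocompatibility beta chain-like entry with 816 and 126. Near-identical copies in these families may share reads.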
